A study of Homo sapiens with 6 samples.

Results

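The genes described here encode the proteasome: the subunits of its core and regulatory particles, the chaperones that assemble them and 1 inhibitor. They were taken from the deposited table as protein-coding rows whose symbol is PSMA, PSMB, PSMC, PSMD, PSMF or PSMG followed by digits only, leaving out the immunoproteasome subunits PSMB8, PSMB9 and PSMB10. The rule found 41 of the table's 57819 genes. They comprise 8 genes of the alpha ring and 8 of the beta ring of the 20S core, 6 ATPases and 3 other subunits of the 19S base, 8 subunits of the 19S lid, 4 chaperones of 20S assembly, 3 chaperones of 19S base assembly and the inhibitor PI31 (PSMF1).

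RNA came from IMR90 ER:Ras cells, an established line of human lung fibroblasts whose Ras oncogene is joined to the hormone-binding part of the estrogen receptor. All cells of both groups had received 200 nM 4-hydroxytamoxifen (4OHT), which switches the fusion on and drives the cells into senescence, for 3 days. Controls (siSCR) were given a scrambled siRNA, and knockdown cells 1 siRNA that targets sin-lncRNA, a long noncoding RNA (columns named si1.3), with 3 libraries per group. The labels do not say whether the libraries came from separate cultures, so p-values measure the spread between these libraries, which may be technical. The comparison asks what differs in 4OHT-treated cells given the targeting siRNA. Whether the cells were senescent at 3 days was not tested here. With 1 such siRNA, loss of the lncRNA cannot be told apart from other effects of that siRNA.

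The proteasome degrades proteins tagged with ubiquitin. Its 20S core is a barrel of stacked alpha and beta rings with the proteolytic sites inside, and the 19S particle binds ubiquitin chains, removes them, unfolds the substrate with a ring of ATPases and threads it into the core. Dedicated chaperones that are absent from the finished particle bring the rings together. When proteasome activity is low, the transcription factor NFE2L1, processed by the protease DDI2, is known to raise the transcription of most subunit genes together. Proteasome decline has been linked to senescence of fibroblasts.

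Reads assigned to genes numbered 30271192 to 50913672 in the controls and 22117324 to 27882280 in the knockdowns. All knockdown libraries were thus shallower than the controls, and depth and group cannot be told apart. Levels are given as RPM, reads per 1000000 reads of the library size that the authors' values imply. Where no read was found, up to 3 reads remain possible, or 0.0596 to 0.134 RPM (counting error only). The targeted lncRNA fell to 13.3% of control (log2 fold change -2.86, SE 0.18; limma, Benjamini-Hochberg adjusted p = 7.9e-07), and its 3 knockdown libraries lay below all 3 controls. Of the fibroblast markers, all 6 were abundant, with summed levels of 15047 to 16216 RPM in controls and 10547 to 10973 RPM in knockdowns. The mean levels of COL1A1, COL1A2, VIM and PDGFRB were lower in knockdowns, while those of COL3A1 (1555 and 2015 RPM in controls and knockdowns) and THY1 (261 and 298 RPM) were higher. The part of these differences in the results below was not tested. Markers of epithelial, endothelial and leukocyte cells, summed for each type apart, reached at most 2.60 RPM in any library. KRT5 was at 0 in all, while PECAM1 has no row of its own. In bulk RNA, fewer cells of a type and less RNA per cell cannot be told apart.

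Of the 41 genes, 38 passed the filter (10 or more normalized reads on average), and 19 of these were lower in knockdowns while 0 were higher (limma, Benjamini-Hochberg adjusted p under 0.05 over 19048 genes). Lower calls made up 50.0% of the tested proteasome genes. Over all genes tested, 23.5% were called lower and 17.5% higher, or 41.0% in either direction. Among protein-coding genes the shares were 26.4% lower, 22.2% higher and 48.6% either way. Among protein-coding genes averaging 200 normalized reads or more, whose levels are closer to those of the proteasome genes, they were 29.6%, 24.1% and 53.8%. The median log2 fold change was -0.14 for the proteasome genes and -0.04 for all genes tested. Fold changes were small, between -0.44 (PSMG1) and 0.13 (PSMD7), or 73.4% to 109.5% of the control level. In 25 of the 38 genes every knockdown library lay below every control, against 28.3% of all genes tested, 30.4% of protein-coding genes and 33.1% of those averaging 200 reads or more. All knockdowns lay above all controls for PSMD7 alone. Groups that do not overlap, in either direction, were found in 51.1%, 57.6% and 61.8% of these 3 sets. An exact permutation test of 3 libraries against 3 cannot give a two-sided p under 0.1. Without control replicate 3, the deepest library, 12 genes were lower and 1 (PSMD7) higher. With all libraries but no trend in limma's variance estimate, 14 proteasome genes were lower. PSMA7, PSMD2, PSMD9, PSMD14 and PSMG3 were then no longer called (limma adjusted p from 0.053 to 0.085).

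**Figure D1:**
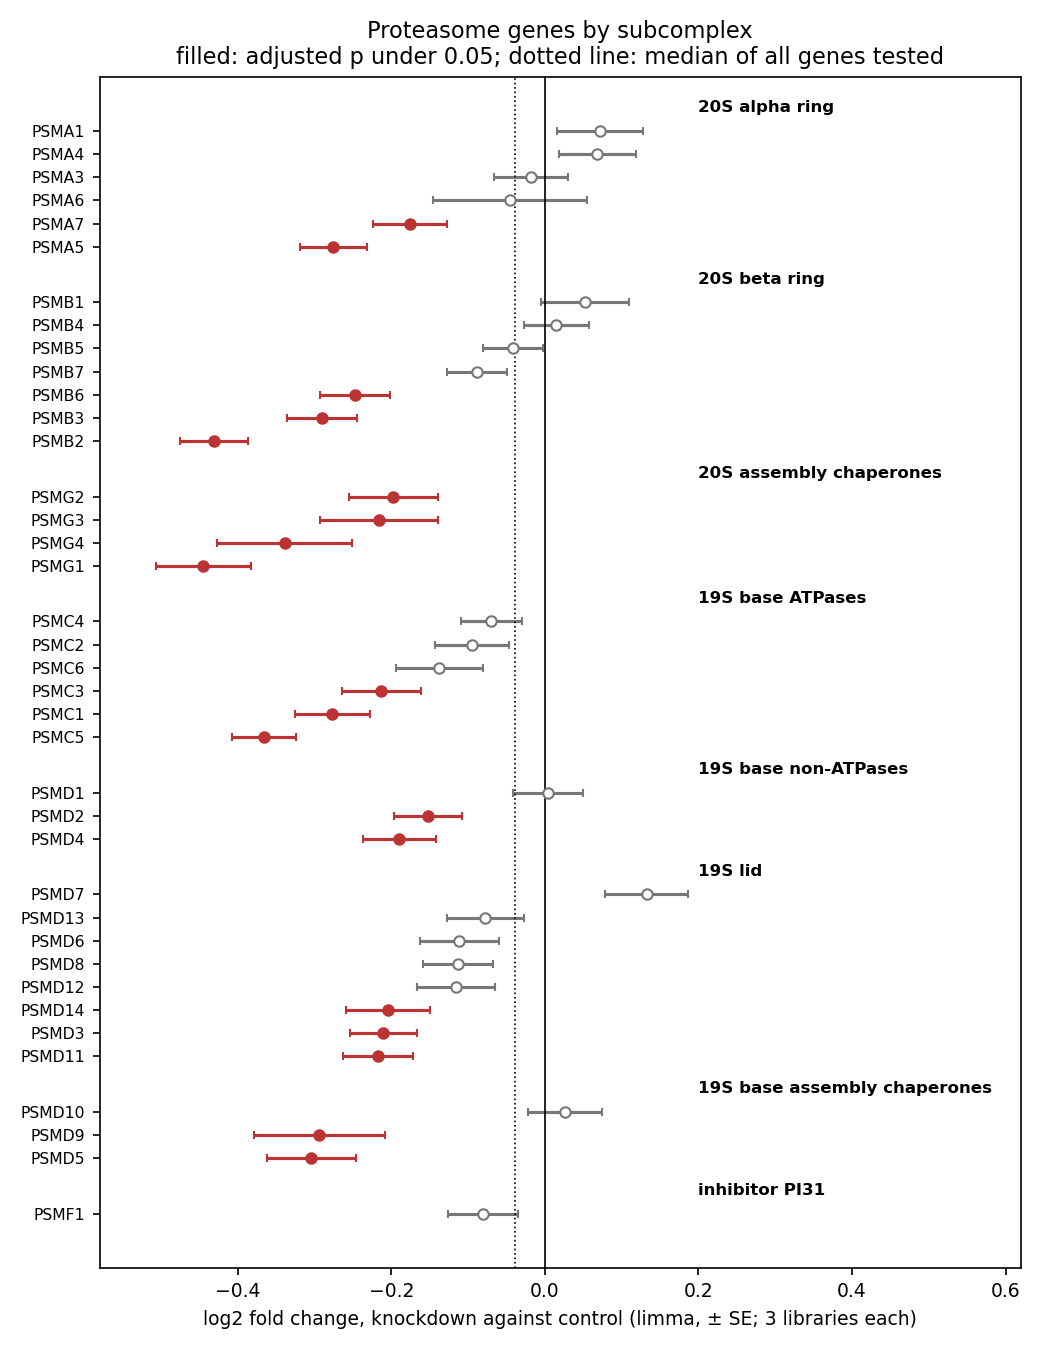
Log2 fold change (knockdown against control) with its standard error for the 38 tested proteasome genes, grouped by subcomplex; filled points have an adjusted p under 0.05 and the dotted line is the median of all genes tested, -0.04. The 19 filled points all lie to the left of 0, from -0.44 to -0.15, and the 20S assembly chaperones are the only subcomplex of several genes with no open point.

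Within the alpha ring, whose tails form the gate of the barrel, 2 of 6 tested genes fell and the median log2 fold change was -0.03, both close to the background (29.6% lower among protein-coding genes averaging 200 reads or more, and a median of -0.04 over all genes). PSMA5 measured 99.0, 99.6 and 97.7 RPM in control replicates 1, 2 and 3 and 81.5, 84.1 and 79.3 RPM in knockdown replicates 1, 2 and 3. The groups were well apart, and the log2 fold change was -0.28 (SE 0.04; limma adjusted p = 0.00053). PSMA7 was at 165.8 ± 6.0 RPM in controls and 146.8 ± 6.5 RPM in knockdowns (SD, n = 3), or -0.18 on the log2 scale (limma adjusted p = 0.013). This call was lost without control replicate 3 (-0.15; limma adjusted p = 0.074). PSMA3 (log2 fold change -0.02), PSMA4 (0.07), PSMA1 (0.07) and PSMA6 (-0.05) did not pass the test. PSMA8, the testis form of an alpha subunit, had 0 reads in all 6 libraries.

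In the beta ring, which holds the proteolytic sites, 3 of 7 tested genes fell, beside 29.6% of protein-coding genes averaging 200 reads or more. These 3 calls held in every one of the 19 alternatives tried. PSMB2 (ENSG00000126067.7; hg19 chr1:36067185-36107445), a subunit without a proteolytic site, measured 126, 132 and 132 RPM in the controls and 97.9, 93.3 and 98.7 RPM in the knockdowns. No knockdown library came near a control, and the level fell to 74.2% of control (log2 fold change -0.43, SE 0.04; limma adjusted p = 2.8e-05). PSMB3, also without a site, measured 94.7, 96.8 and 98.8 RPM in controls and 78.1, 77.0 and 82.3 RPM in knockdowns, giving a log2 fold change of -0.29 (SE 0.05; limma adjusted p = 0.00052).

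The 3 catalytic subunits differed in what they showed. PSMB6, which cuts after acidic residues, measured 109.7, 113 and 113 RPM in controls and 91.3, 93.6 and 98.4 RPM in knockdowns, giving a log2 fold change of -0.25 (SE 0.05; limma adjusted p = 0.0013). PSMB7, which cuts after basic residues, measured 180.03, 184 and 180.4 RPM in controls and 169, 169 and 174 RPM in knockdowns. Its groups did not overlap either, but the difference was small (log2 fold change -0.09, SE 0.04) and did not pass the adjusted test (limma, 0.094). PSMB5, which cuts after hydrophobic residues and is the main target of proteasome inhibitors, measured 217, 219 and 219 RPM in controls and 207, 217 and 214 RPM in knockdowns. These groups overlapped narrowly, and the log2 fold change was -0.04 (SE 0.04; limma adjusted p = 0.44). Whether PSMB6 fell by more than PSMB5 was not tested. PSMB4 (0.015) and PSMB1 (0.05) were close to 0 and uncalled, and PSMB11, the thymus form, had 3 reads in control replicate 2, 1 in knockdown replicate 3 and 0 in the others.

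**Figure D2:**
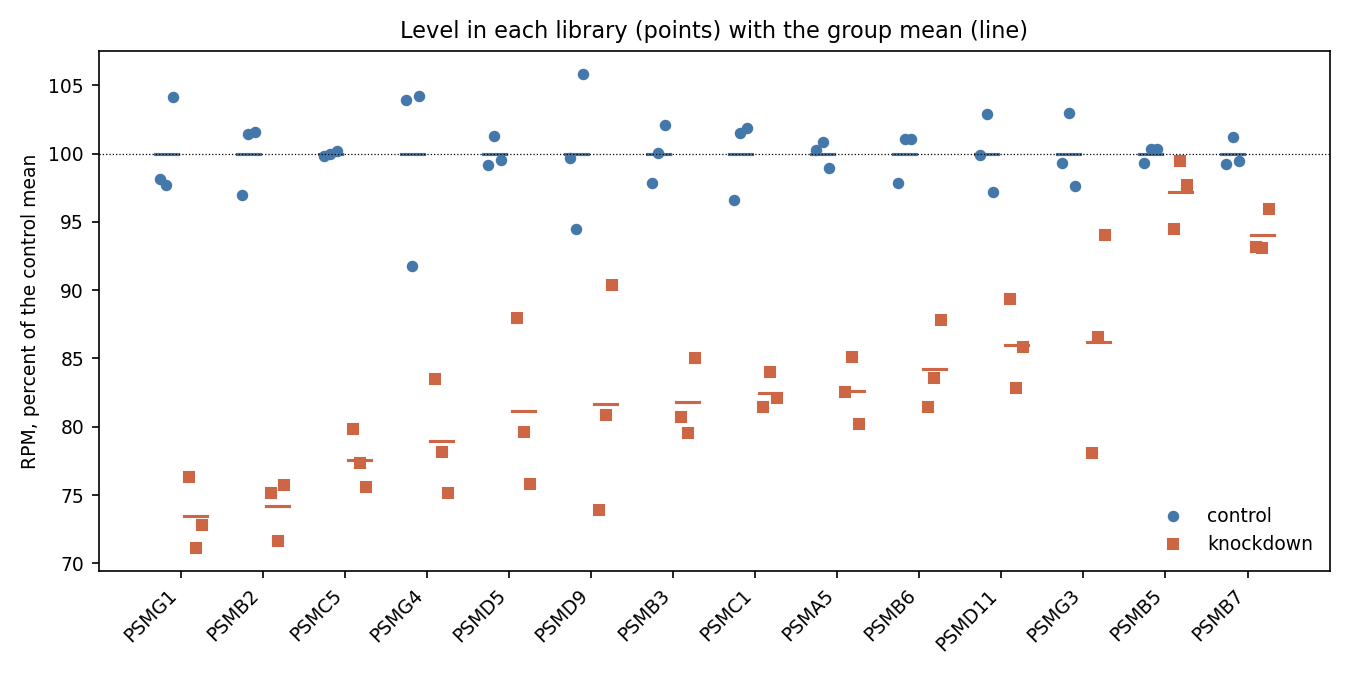
RPM of each library as a percent of the control mean for the 12 genes with the largest called changes and for PSMB5 and PSMB7; points are libraries and lines are group means, and the vertical axis does not start at 0. All knockdown points of the first 12 genes lie below all control points, whereas those of PSMB5 reach the controls.

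All 4 chaperones of 20S assembly that the rule takes in fell, with a median log2 fold change of -0.28. Among the subcomplexes of more than 1 gene as drawn here, only this one had every member called. Of protein-coding genes averaging 200 reads or more, 29.6% were lower. POMP, a 20S chaperone outside the rule, was not called. PSMG1 and PSMG2 form a pair that builds the alpha ring and keeps it from pairing wrongly. PSMG1 (ENSG00000183527.7; hg19 chr21:40546695-40555777) measured 23.9, 23.8 and 25.4 RPM in controls and 18.6, 17.3 and 17.7 RPM in knockdowns. Its level in knockdowns was 73.4% of control, the lowest share of any tested proteasome gene (log2 fold change -0.44, SE 0.06; limma adjusted p = 0.00022), and the call held in all 19 alternatives. PSMG2 was at 27.5 ± 0.5 RPM in controls and 24.0 ± 1.1 RPM in knockdowns (SD, n = 3), or -0.20 on the log2 scale (limma adjusted p = 0.020).

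PSMG3 and PSMG4, the second pair of 20S chaperones, act on the same ring. PSMG4 measured 10.1, 8.92 and 10.1 RPM in controls and 8.11, 7.60 and 7.30 RPM in knockdowns, giving a log2 fold change of -0.34 (SE 0.09; limma adjusted p = 0.010). PSMG3 measured 18.5, 19.1 and 18.2 RPM in controls and 14.5, 16.1 and 17.5 RPM in knockdowns, so that knockdown replicate 3 lay just under the lowest control. Its log2 fold change was -0.22 (SE 0.08; limma adjusted p = 0.043). The PSMG3 call was the least firm of the 19: it was lost in 13 of the 18 other fits, among them those without any 1 of control replicates 1, 2 and 3 or knockdown replicates 1 and 2 (limma adjusted p from 0.072 to 0.143). PSMG4 lost its call without control replicate 3 (limma adjusted p = 0.054). For PSMG2 the call did not survive the loss of control replicate 2 (limma adjusted p = 0.053) or 3 (0.073) or of knockdown replicate 2 (0.070) or 3 (0.060), nor quantile normalization (0.086) or thinning to equal depth (0.051). PSMG2, PSMG3 and PSMG4 overlap listed genes on the opposite strand. The reads of these genes, not corrected for length, come to 27.0% of PSMG2 (CEP76) and 65.7% of PSMG3 (PSMG3-AS1). For PSMG4 they come to 167% (SLC22A23) and 644% (TUBB2B). As the strand setting of the counting is not given in the sources used here, reads of such genes cannot be told apart where they overlap.

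Chaperones of base assembly hold the ATPases until the ring is complete. Of the 3 that the rule takes in, PSMD5 and PSMD9 fell and PSMD10 did not pass the test. PSMD5 measured 67.0, 68.4 and 67.3 RPM in controls and 59.4, 53.8 and 51.2 RPM in knockdowns, giving a log2 fold change of -0.30 (SE 0.06; limma adjusted p = 0.0017). PSMD9 measured 16.3, 15.4 and 17.3 RPM in controls and 12.1, 13.2 and 14.7 RPM in knockdowns, a wider scatter that still left the groups apart (log2 fold change -0.29, SE 0.09; limma adjusted p = 0.018). The PSMD9 call was lost without control replicate 3 (limma adjusted p = 0.085) or knockdown replicate 1 (0.063). PSMD9 overlaps WDR66 on the same strand, a gene with 38.8% of its reads, so its value is uncertain. PSMD10, also known as gankyrin, was at 0.03 on the log2 scale (SE 0.05; limma adjusted p = 0.69). Over the 7 assembly chaperones of both particles that the rule takes in, 6 were lower, or 2 without control replicate 3. Lower calls made up 29.6% of protein-coding genes averaging 200 reads or more. The assembly factors POMP (log2 fold change -0.09) and PAAF1 (-0.08) fall outside the rule. Neither was called (limma adjusted p = 0.20 and 0.41).

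Among the 19S base genes, 5 of 9 fell, beside 29.6% of protein-coding genes averaging 200 reads or more. All 6 ATPases had a negative log2 fold change, with a median of -0.18. Negative values made up 55.1% of all genes tested and 53.8% of protein-coding genes averaging 200 reads or more. PSMC5 (ENSG00000087191.8; hg19 chr17:61904512-61909379) measured 122, 122 and 122 RPM in controls and 97.5, 94.6 and 92.4 RPM in knockdowns. The controls were all but identical and the knockdowns fell to 77.6% of them (log2 fold change -0.37, SE 0.04; limma adjusted p = 6.0e-05). PSMC5 overlaps FTSJ3 on the opposite strand, whose reads come to 87.9% of its own. PSMC1, an ATPase whose tail opens the gate of the core, measured 50.4, 53.0 and 53.2 RPM in controls and 42.5, 43.8 and 42.9 RPM in knockdowns (log2 fold change -0.28, SE 0.05; limma adjusted p = 0.0010). PSMC3, another gate-opening ATPase, was at 154.3 ± 6.7 RPM in controls and 133.1 ± 6.7 RPM in knockdowns (SD, n = 3), or -0.21 on the log2 scale (limma adjusted p = 0.0065).

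The other ATPases, PSMC6 (log2 fold change -0.14), PSMC2 (-0.10) and PSMC4 (-0.07), did not pass the test. Without control replicate 1, PSMC6 (-0.19; limma adjusted p = 0.021) and PSMC2 (-0.14; limma adjusted p = 0.029) did. Of the scaffold and receptor subunits, PSMD4, which binds ubiquitin chains, went from 105.0 ± 3.1 to 92.0 ± 3.8 RPM (log2 fold change -0.19; limma adjusted p = 0.0085). PSMD2, a scaffold subunit, went from 634 ± 31.9 to 570.4 ± 1.4 RPM (log2 fold change -0.15; limma adjusted p = 0.017). The PSMD2 call was lost without control replicate 2 or 3 or knockdown replicate 2 or 3 (limma adjusted p from 0.051 to 0.084) and after thinning to equal depth (0.067). PSMD1, the other scaffold, had a log2 fold change of 0.0041 and was not called (limma adjusted p = 0.95).

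In the lid, which removes ubiquitin chains, 3 of 8 genes fell, with a median of -0.11 over the 8. This count is near the 29.6% called lower among protein-coding genes averaging 200 reads or more. PSMD11 measured 142, 146 and 138 RPM in controls and 127, 118 and 122 RPM in knockdowns, giving a log2 fold change of -0.22 (SE 0.05; limma adjusted p = 0.0030). PSMD3 went from 184.2 ± 1.3 to 159.3 ± 6.8 RPM (log2 fold change -0.21; limma adjusted p = 0.0029). PSMD14, the deubiquitinating enzyme of the particle, went from 102.2 ± 7.0 to 88.6 ± 1.9 RPM (log2 fold change -0.20; limma adjusted p = 0.012), and its call was lost without control replicate 3 (0.061) or knockdown replicate 3 (0.055). PSMD12, PSMD8, PSMD6 and PSMD13 had log2 fold changes of -0.12, -0.11, -0.11 and -0.08 and were not called. Leaving out control replicate 1 gave PSMD12 a call (-0.16; limma adjusted p = 0.020), and leaving out control replicate 2 gave PSMD8 one (-0.14; limma adjusted p = 0.043).

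PSMD7 (ENSG00000103035.6; hg19 chr16:74330673-74340186), the partner of PSMD14 in the lid, stood at the other end of the list. It measured 71.5, 74.7 and 80.0 RPM in controls and 81.4, 80.2 and 86.1 RPM in knockdowns, with the lowest knockdown a little above the highest control. The log2 fold change of 0.13 (SE 0.05) missed the threshold (limma adjusted p = 0.071). It passed with library totals, quantile normalization, voom or thinned reads (0.15 to 0.18; limma adjusted p from 0.024 to 0.039) and without control replicate 3 (0.18; limma adjusted p = 0.046). PSMF1, which encodes the inhibitor PI31, went from 80.5 ± 0.8 to 76.1 ± 2.9 RPM (log2 fold change -0.08; limma adjusted p = 0.19).

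Summed over the 38 tested genes, proteasome reads made up 4352, 4516 and 4544 RPM in controls and 4047, 4077 and 4149 RPM in knockdowns, or 91.5% of control. The groups did not overlap. The sum was 93.3% of control for the 13 core genes, 90.8% for the 17 genes of the 19S particle and 85.7% for the 7 assembly chaperones. These sums weigh abundant genes most, PSMD2 above all.

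To rank the proteasome genes by level, RPM was divided by length, as RPM per kilobase of the principal GENCODE 29 transcript (the median length where there are several). In controls PSMB4 (217), PSMB7 (185), PSMD2 (184), PSMB5 (169), PSMA7 (166), PSMB1 (160) and PSMB6 (132) stood highest in RPM per kilobase, so the upper ranks were mostly beta subunits. PSMB7 and PSMD2 did not differ beyond their spread (185.1 ± 2.0 and 183.9 ± 9.2), nor did PSMA7 and PSMB5 (166.4 ± 6.1 and 169.0 ± 1.0; SD, n = 3). The chaperones were in the lower part of the order, at 27.4 (PSMD10), 19.6 (PSMD5), 18.5 (PSMG3), 16.3 (PSMG2), 11.6 (PSMG4), 11.3 (PSMG1) and 5.86 (PSMD9) RPM per kilobase. Several subunits, among them PSMA5 (26.5), PSMC6 (23.1) and PSMD12 (20.2), were below PSMD10. The particle holds most of its subunits in equal number, but their mRNA levels per length were not equal. The choice of transcript enters these values, and reads assigned to pseudogenes do not.

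Several members share sequence with processed pseudogenes, which took up part of their reads. For PSMC1, 13 pseudogene rows held 70.5% of the reads assigned to the gene and its copies, and for PSMA6, 4 rows held 82.7%. PSMA6 itself measured 10.4, 10.4 and 10.2 RPM in controls and 8.52, 10.5 and 11.1 RPM in knockdowns, overlapping, while its pseudogene rows measured 51.4 ± 1.0 and 45.5 ± 2.1 RPM (SD, n = 3). With the copies added, PSMA6 measured 61.4, 62.9 and 60.9 RPM in controls and 56.2, 54.0 and 56.4 RPM in knockdowns. The groups then lay apart, giving a log2 fold change of -0.15 (SE 0.05; limma adjusted p = 0.021) against -0.05 for its own row. PSMC1 with its copies had a log2 fold change of -0.29 (limma adjusted p = 0.00049), close to the -0.28 of its own row. Adding the copies brought the number of lower genes from 19 to 20. This sum was chosen after the data were seen, and reads of a transcribed pseudogene cannot be told apart from those of the parent gene in it.

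The row that carries the symbol PSMA2 does not stand for the gene's main transcripts. It had 1 read in each of control replicates 1 and 2 and 0 in the other libraries, and did not pass the filter. A second row whose name joins PSMA2 to the Ensembl ID ENSG00000106588.6 falls outside the rule and measured 9.84, 10.3 and 11.5 RPM in controls and 13.4, 11.5 and 10.3 RPM in knockdowns (log2 fold change 0.15, SE 0.10; limma adjusted p = 0.27). The 2 rows overlap on the same strand. With both rows and 3 pseudogenes added together, PSMA2 measured 32.3 ± 2.0 RPM in controls and 32.7 ± 1.2 RPM in knockdowns (SD, n = 3; log2 fold change 0.02, limma adjusted p = 0.83). PSMA1 overlaps COPB1 on the same strand, a gene with 628% of its reads, so its value is uncertain too.

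**Figure D3:**
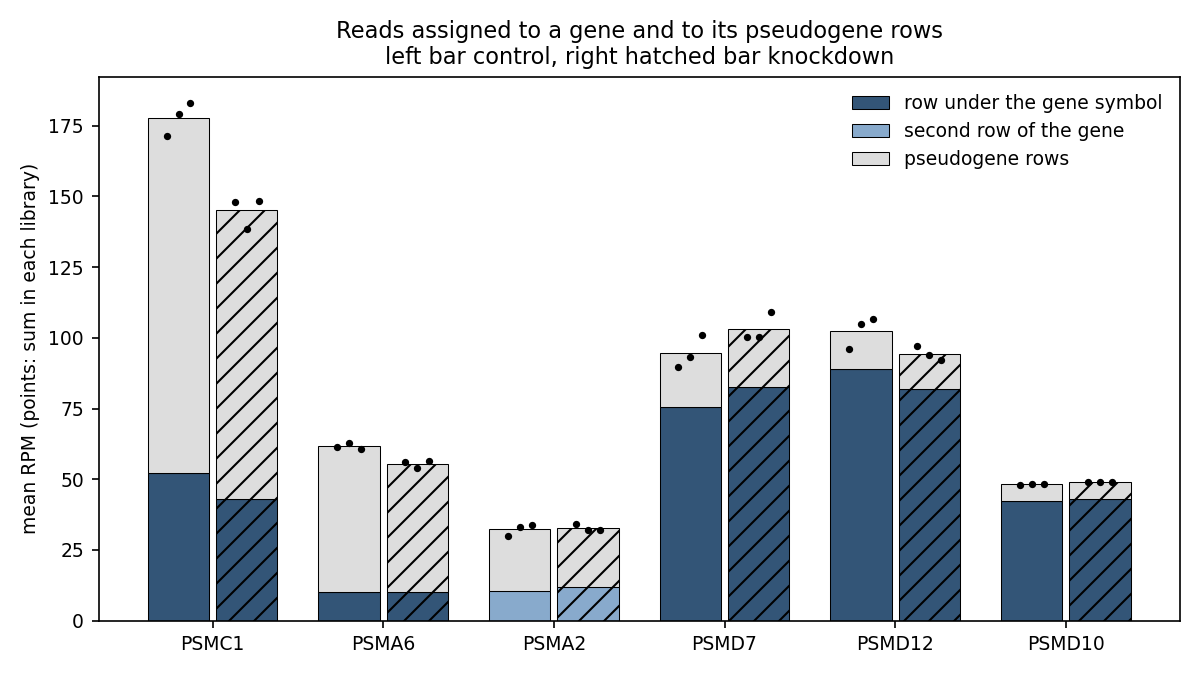
Mean RPM (bars, stacked) of the row under the gene symbol, a second row of the gene and its pseudogene rows for 6 genes, with the sum in each library as points; left bars are controls and right hatched bars knockdowns. Most reads of PSMC1, PSMA6 and PSMA2 lie in pseudogene rows, and only PSMC1 and PSMA6 among the 6 have all summed knockdown values below all controls.

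Promoters of 35 of the 41 genes were matched by symbol in RefSeq (GRCh38.p14, 250 bases before to 50 after the start; a gene can have several windows). The letters TGACNNNGC, the core of the antioxidant response element that NFE2L1 and NFE2L2 bind with small MAF partners, were searched on both strands. They occurred in 11 of these 35 genes (31.4%) and in 16.1% of the 27305 genes in the table. In the 250 upstream bases alone the counts were 9 of 35 (25.7%) and 13.2%. Of the 15 genes called lower with a promoter window, 7 held a match, and of the 17 tested but uncalled genes 4 did. CCAAT, searched on both strands, occurred in 18 of 35 genes (51.4%) against 39.7% of all, with 8 of 15 lower and 8 of 17 uncalled genes. The 2 motifs overlapped nowhere in these genes. A match is a description of the letters and not evidence of binding.

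The stretches around the upstream matches are shown for the 7 genes that fell and for 2 that were not called, PSMA4 and PSMD12, since these letters recur in genes of several subcomplexes. Each is given 5′ to 3′ on the gene's strand with the matched letters in capitals, in the order of their fold change, for GRCh38.p14.
PSMG1, chr21:39183600-39183660, minus strand: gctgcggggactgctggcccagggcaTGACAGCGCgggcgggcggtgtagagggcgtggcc
PSMC5, chr17:63827638-63827698, plus strand: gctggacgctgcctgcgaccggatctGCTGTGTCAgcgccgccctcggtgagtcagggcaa
PSMD5, chr9:120843022-120843082, minus strand: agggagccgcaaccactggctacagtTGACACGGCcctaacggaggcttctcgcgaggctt
PSMD9, chr12:121888662-121888722, plus strand: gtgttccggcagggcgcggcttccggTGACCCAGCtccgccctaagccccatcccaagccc
PSMB3, chr17:38752611-38752671, plus strand: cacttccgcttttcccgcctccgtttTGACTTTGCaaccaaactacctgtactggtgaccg
PSMD3, chr17:39980744-39980804, plus strand: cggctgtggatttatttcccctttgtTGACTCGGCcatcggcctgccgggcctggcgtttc
PSMG2, chr18:12658673-12658733, plus strand: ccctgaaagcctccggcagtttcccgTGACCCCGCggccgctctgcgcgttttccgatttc
PSMD12, chr17:67366708-67366768, minus strand: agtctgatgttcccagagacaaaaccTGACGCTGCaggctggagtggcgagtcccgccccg
PSMA4, chr15:78540634-78540694, plus strand: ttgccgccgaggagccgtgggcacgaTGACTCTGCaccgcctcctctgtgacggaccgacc
In PSMC5 the letters lie on the opposite strand and so read as the reverse complement. PSMD9 holds a second upstream match, not shown. The match begins 37 bases before the start in PSMD3, 39 in PSMG2, 57 in PSMC5 and 183 in PSMG1.

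Of the 3 immunoproteasome subunits, which replace the catalytic ones in cells exposed to interferon, PSMB9 and PSMB10 rose and PSMB8 did not pass the test. Higher calls made up 17.5% of all genes tested and 22.2% of protein-coding genes. PSMB9, which replaces PSMB6, measured 3.26, 2.16 and 2.46 RPM in controls and 3.72, 3.76 and 4.17 RPM in knockdowns, with all knockdowns above the controls (log2 fold change 0.58, SE 0.16; limma adjusted p = 0.012). The call was lost without knockdown replicate 3 (0.53; limma adjusted p = 0.052). PSMB10, which replaces PSMB7, measured 5.90, 4.00 and 4.69 RPM in controls and 6.32, 6.66 and 5.95 RPM in knockdowns, with little room between the groups. Its log2 fold change was 0.39 (SE 0.14; limma adjusted p = 0.039), and the call was lost on leaving out any 1 of control replicates 2 and 3 and the 3 knockdowns (0.26 to 0.44; limma adjusted p from 0.065 to 0.125). PSMB8, which replaces PSMB5, measured 23.4, 22.1 and 22.8 RPM in controls and 23.5, 26.2 and 28.4 RPM in knockdowns (log2 fold change 0.19; limma adjusted p = 0.058). It was called without knockdown replicate 1 (0.26; limma adjusted p = 0.013) and with library totals, quantile normalization, voom or thinned reads (0.20 to 0.24; limma adjusted p from 0.020 to 0.044). PSMB9 overlaps PSMB8 and TAP1 on the opposite strand, and both hold more reads than it does. That the immunosubunits and their constitutive partners differed in direction was not itself tested.

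Among other genes of the pathway, from lists of 42 genes that include the 3 immunosubunits, 9 were lower and 8 higher, near the background of 41.0% called. Without the trend in limma's variance estimate 5 were lower and 5 higher, with PSMB10, PSME3, KIAA0368, SEL1L, UBQLN4, UBXN7 and UBA6 no longer called (limma adjusted p from 0.054 to 0.108). Under quantile normalization 5 were lower, and KIAA0368, UBQLN4 and UBA6 were among those not called. Of 4 activators, PSME2 (log2 fold change -0.29; limma adjusted p = 0.0012) and PSME3 (-0.17; 0.016) fell, while PSME1 (0.09) and PSME4 (-0.09) were not called. PSME3 lost its call without control replicate 3 or knockdown replicate 2 or 3 (limma adjusted p from 0.054 to 0.078). Of 5 further constitutive subunits and assembly factors, SHFM1, a small lid subunit, rose (0.24; limma adjusted p = 0.0052) and KIAA0368, which tethers the core to the 19S particle, fell (-0.17; 0.025). The KIAA0368 call was lost without control replicate 2 or 3 or knockdown replicate 2 or 3 (limma adjusted p from 0.062 to 0.099). POMP, the maturation chaperone of the beta ring, had a log2 fold change of -0.09 and was not called (limma adjusted p = 0.20), but was without control replicate 1 (-0.15; limma adjusted p = 0.033).

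**Figure D4:**
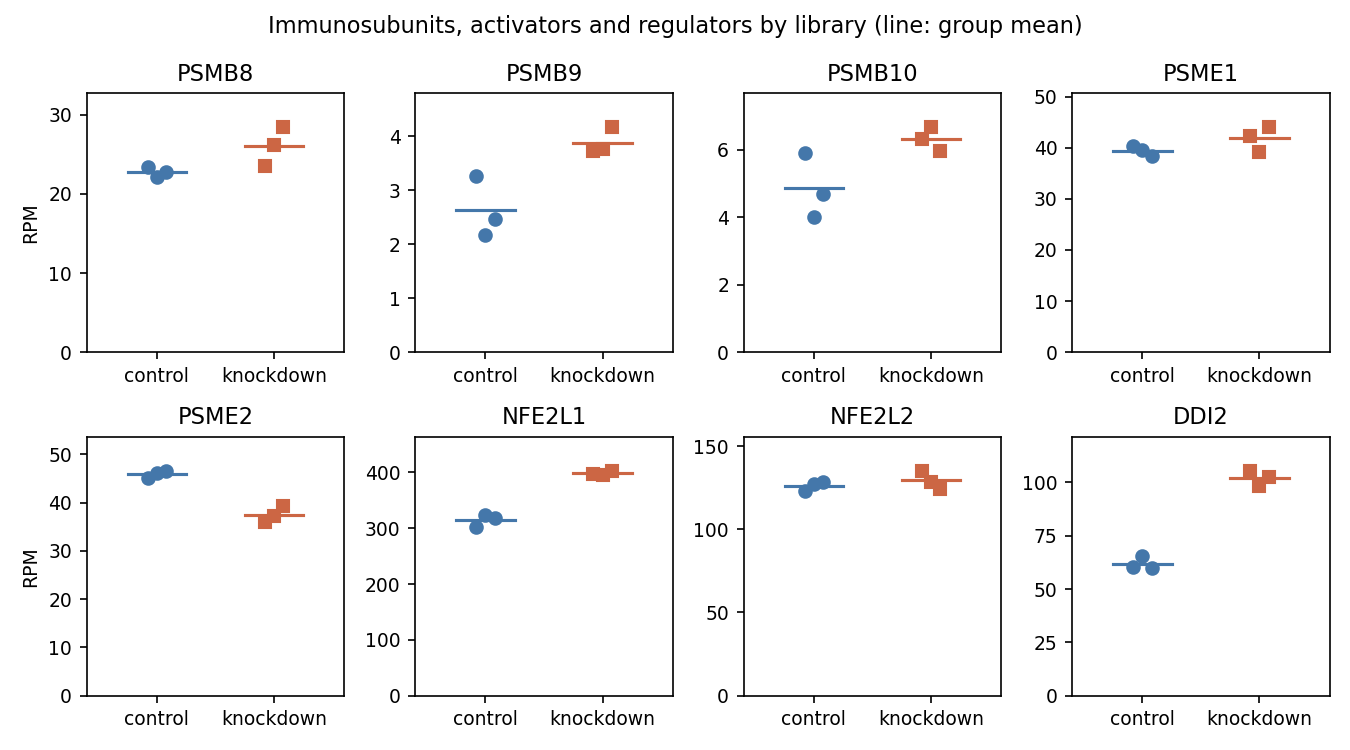
RPM in each library (points) and group mean (lines) for the immunosubunits PSMB8, PSMB9 and PSMB10, the activators PSME1 and PSME2 and the regulators NFE2L1, NFE2L2 and DDI2, each on its own axis from 0. NFE2L1 and DDI2 are higher in all knockdown libraries and PSME2 lower, whereas the values of NFE2L2 overlap.

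In a list of 9 genes with regulators of proteasome transcription, and also SEL1L and SYVN1, 3 rose and 1 fell. This count is near the 41.0% of all genes and 48.6% of protein-coding genes called either way. NFE2L1 measured 302, 325 and 318 RPM in controls and 398, 395 and 403 RPM in knockdowns, far apart (log2 fold change 0.34, SE 0.04; limma adjusted p = 8.0e-05). DDI2 measured 60.2, 65.7 and 60.0 RPM in controls and 105.5, 98.3 and 102 RPM in knockdowns, 165% of control (log2 fold change 0.72, SE 0.05; limma adjusted p = 2.4e-06). Both calls held in all 19 alternatives, and DDI2 contains the nested gene RSC1A1 on the same strand. SEL1L, a component of the machinery that extracts proteins from the endoplasmic reticulum, also rose (0.18; limma adjusted p = 0.012), and MAFG, a small MAF partner, fell (-0.23; 0.0059). NFE2L2 (0.04), the peptide glycanase NGLY1 (-0.06), SYVN1 (0.15), MAFK (0.04) and MAFF (-0.09) were not called.

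At the steps before the proteasome, 3 of 6 genes of p97 and its cofactors were called: FAF2 (-0.21; limma adjusted p = 0.0048) and NPLOC4 (-0.15; 0.0093) fell and UBXN7 (0.20; 0.0096) rose. This count is near the 48.6% of protein-coding genes called either way. Without control replicate 3, UBXN7 was not called (0.16; limma adjusted p = 0.057). The ATPase itself, VCP, had a log2 fold change of -0.04 and was not called. Of 9 shuttle factors and enzymes bound to the proteasome, RAD23B rose (0.18; limma adjusted p = 0.0045) and UBQLN4 fell (-0.21; 0.015), the latter not without knockdown replicate 3 (0.066). The share called in this list is below the 41.0% of all genes tested called either way. Among ubiquitin and E1 genes, UBA6, an E1 enzyme, fell (-0.21; limma adjusted p = 0.030), but not without control replicate 2 or 3 or knockdown replicate 2 or 3 (0.073 to 0.122). UBB, RPS27A and the main E1 enzyme UBA1 lay between -0.05 and -0.03 on the log2 scale and were not called.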

How the data were processed

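PolyA RNA of 6 libraries was read as single 50 bp reads, per the labels' protocols. The authors deposited log2 values for 57819 genes in 1 table. Bowtie2, featureCounts and hg19 are named in the submitters' processing notes without roles; versions, annotation and strand setting are not given in the sources used here. In every column the values were log2 of (reads + 0.5) per 1000000 reads of library size: undoing this gave whole numbers (within 1e-04) for 100% of values, from which reads and RPM were computed. Columns were matched to samples by replicate and siRNA name. The ending of si1.3 is not explained in the labels.

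The deposited log2 values were fitted with limma 3.58.1 (R 4.3.3; lmFit, eBayes with trend, group as the only term, two-sided) over 19048 genes with a mean of at least 10 normalized reads, with Benjamini-Hochberg adjustment. Fold changes are on the log2 scale with the 0.5-read offset. In simulated data, of genes with at least 200 reads, 91.7% of those changed by 0.3 (log2) were recovered, and 3.90% of all calls were false. The simulation gave all genes the same variance beyond counting noise (dispersion 0.000671). It also changed far fewer genes than were called here, so its rates need not hold for these libraries. Replicates of a group differed by more than sampling noise (chi-square per degree of freedom 2.87 to 11.0). The members, lists and tests were chosen with earlier results of these data known. Values in every library are given for the catalytic subunits and the 12 largest called changes without overlap. Pseudogene copies were matched by name. Some genes of the pathway lists enter the counts but are not reported here by name.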

Additional observations from a re-analysis of the deposited data

How the results depend on the processing

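Of the 19 called proteasome genes, 12 kept call and direction in all 19 alternatives, 7 lost the call in at least 1, and 0 reversed. The number called lower was 14 to 20 in fits with all libraries and the same threshold, 12 at a threshold of 0.01, and 12 to 21 with 1 library left out, lowest without control replicate 3. The number called higher was 1 (PSMD7) with library totals, quantile normalization, voom or thinning, and 0 to 1 with 1 library left out. In the alpha ring 1 gene was lower without the trend and at 0.01, and 1 to 2 with 1 library left out. Of the assembly chaperones 2 were lower at 0.01, and 2 to 5 with 1 library left out. Pathway genes called lower were 5 under quantile normalization, without the trend and at 0.01, and 5 to 11 with 1 library left out. Those called higher were 5 without the trend and at 0.01. Over all genes, 5195 changed at 0.01 (2955 lower). With 1 library left out, 3204 to 4310 of all genes were lower, also lowest without control replicate 3.

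The median log2 fold change of the proteasome genes was -0.117 under quantile normalization, -0.114 with voom and -0.111 after thinning, and lay between -0.182 and -0.126 when a single library was dropped. The median of all genes was -0.04 in the main fit, and 0.08 without a filter, where genes with few reads enter. It was -0.0076 under quantile normalization, -0.0089 with voom and -0.0087 after thinning. When a single library was dropped it lay between -0.0441 and -0.0326. The alpha ring median was 0.0060 with voom, -0.0823 with pseudogene copies added (an alternative chosen after seeing the data), and -0.0826 to 0.0092 on dropping a library. That of the beta ring was -0.0496 after thinning, and that of the 19S base -0.194 to -0.125 on dropping a library. For the assembly chaperones it was -0.216 at log2(RPM + 5), -0.260 under quantile normalization, -0.262 with voom, and -0.295 to -0.233 on dropping a library.

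Some uncalled genes near 0 changed sign. PSMA3 was 0.0010 with library totals, 0.0062 under quantile normalization, 0.0124 with voom and 0.0144 after thinning, and PSMB5 was 0.0145 under quantile normalization. On dropping a library PSMA3 covered -0.0417 to 0.0142, PSMD1 -0.0345 to 0.0303, PSMA6 -0.1235 to 0.0678 and PSMB4 -0.0090 to 0.0470. The cause was not tested.

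Equal replicate numbers gave no sign of pairing, since the correlations between deviations of equally numbered libraries were -0.15, -0.18 and 0.07. Fitting the replicate block left 17 proteasome genes lower and 6454 genes changed in all. PSMG2 (limma adjusted p = 0.058) and PSMG3 (0.078) were not called in it, which leaves PSMG1 and PSMG4 of the 20S assembly chaperones. Depth limits what can be said of PSMA8, PSMB11 and the row named PSMA2, and an exact test of single genes cannot reach 0.05 with 3 libraries per group.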
